A study of Mus musculus with 10 samples.

Results

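The genes described here encode the histone deacetylases Hdac3 to Hdac11, which is every classical (zinc-dependent) histone deacetylase other than Hdac1 and Hdac2. They were chosen by name, as the rows of the count and RPKM tables whose Ensembl identifiers map to these symbols, and all 9 were found among the 40620 genes of the count table. The cells were MC3T3-E1, an osteoblast precursor line established from mouse calvaria, sequenced at 5 stages with 2 replicates (A and B) each. Subconfluent and confluent cells were kept in growth medium, and the 24h, 14d and 21d cells received the same medium with ascorbic acid and β-glycerophosphate, which lets the cells lay down and mineralise matrix. All groups share 1 cell line, so no comparison here speaks for another source of osteoblasts. The labels do not say whether A and B came from separate cultures, so each p-value measures only the spread between these samples.

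Histone deacetylases remove acetyl groups from lysines in histones and other proteins, and most of them silence genes as part of larger complexes. Class I holds nuclear enzymes, among them Hdac3, the catalytic subunit of the NCoR/SMRT corepressors. Class IIa members bind MEF2 and Runx2 transcription factors and move between nucleus and cytoplasm when kinases and 14-3-3 proteins capture them. Class IIb enzymes act largely in the cytoplasm on tubulin, chaperones or polyamines, and class IV holds Hdac11 alone. In bone, Hdac3, Hdac4, Hdac5 and Hdac7 are known to bind Runx2, the master regulator of the osteoblast lineage.

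Class IIa can be told apart from the other classes in the coding sequence at the catalytic site, and this is why the stretches below are shown. Each is 33 bases of the coding strand (GENCODE transcripts on GRCm38, read 5′ to 3′ within the longest open reading frame), and the capitals mark the codon that reads histidine in class IIa and tyrosine in the other classes. The enzymes with histidine here have little activity of their own on acetylated histones.
Hdac4: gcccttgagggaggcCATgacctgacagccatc
Hdac5: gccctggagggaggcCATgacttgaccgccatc
Hdac7: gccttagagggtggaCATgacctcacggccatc
Hdac9: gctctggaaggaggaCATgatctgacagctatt
Hdac6 (first catalytic domain): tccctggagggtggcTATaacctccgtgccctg
Hdac6 (second catalytic domain): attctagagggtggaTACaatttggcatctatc
Hdac8: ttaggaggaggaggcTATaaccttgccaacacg
Hdac10: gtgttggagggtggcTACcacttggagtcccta
Hdac11: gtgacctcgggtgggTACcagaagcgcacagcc
The Hdac5 codon is number 1017 of its reading frame and lies in exon 26 of 29 (chr11:102196584-102196616, minus strand), and the Hdac11 codon is number 336 and lies in exon 10 of 10 (chr6:91173115-91173147, plus strand). Within class IIa, the coding sequence of Hdac5 had the same base as that of Hdac4 at 66.0% of the positions of the longer sequence, against 61.5% with Hdac9 and 56.0% with Hdac7 in global alignments. Over the aligned bases alone the values were 71.4% with Hdac4, 67.0% with Hdac9 and 68.1% with Hdac7. The order of Hdac9 and Hdac7 therefore depends on the measure. How the study counted reads that fit several genes was not given in the sources used here.

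Among the 7 members whose promoter sequence was available, only Hdac5 carried a match to the MEF2 consensus site. Hdac3 and Hdac10 had no promoter sequence in the source used and were not searched. The 250 bases before the start of Hdac5 (RefSeq, GRCm38.p6, chr11:102230173-102230422, minus strand) are shown with that match in capitals.
Hdac5 promoter: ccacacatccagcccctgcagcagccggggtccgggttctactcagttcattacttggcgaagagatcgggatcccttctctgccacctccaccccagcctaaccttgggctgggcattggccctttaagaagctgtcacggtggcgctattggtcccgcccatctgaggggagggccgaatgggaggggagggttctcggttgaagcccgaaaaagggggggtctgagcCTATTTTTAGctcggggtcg
The match ends 10 bases before the annotated start. The MEF2 consensus, searched on both strands, occurred in 2.92% of 32851 RefSeq promoter windows of this length, and in 1 of the 11 windows that the table gives for 7 of the 9 genes. TGTGGT, the core of the Runx site, occurred in 2 of those 11 windows (Hdac6 and Hdac8) against 14.05% of all windows. A match of letters does not show that a factor binds there.

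Depth and purity were checked for all libraries. Counts on genes ran from 44736156 to 162939333 per library, so members other than Hdac9 were read 128 to 15943 times in every library. The replicates of 24h stood apart: the SD of the log2 ratio of A to B over 16133 genes was 0.674 there, against 0.282 to 0.321 at the other stages, so results are also given without these libraries. All 6 osteoblast markers (Runx2, Sp7, Alpl, Bglap, Ibsp and Col1a1) were read in every library, and 5 of them were higher at 21d than in subconfluent cells. Of the osteocyte markers, Dmp1, Mepe and Phex were higher at 21d and Sost and Fgf23 had at most 2 counts in any library. Ptprc and Adgre1 (myeloid), Cdh5, Kdr and Emcn (endothelial), and Myod1 and Myog (muscle) had at most 2 counts as well. The myeloid list summed to between 18.2 and 29.1 RPKM over all libraries, mostly from Lyz2 and Itgam, and its part in any result was not tested. The adipocyte and endothelial lists stayed at or below 1.13 and 0.107 RPKM in sum, the neuronal list (8.46 to 26.1 RPKM) consisted almost wholly of Tubb3, and the muscle list went from between 43.1 and 43.8 RPKM in subconfluent cells to between 14.7 and 14.8 at 21d with Acta1. The subconfluent, confluent and 24h libraries carry one pair of index sequences and the 14d and 21d libraries another, so for any comparison across these sets the stage and the index pair cannot be told apart. In bulk RNA, fewer cells of a type and less RNA per cell cannot be told apart either.

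The 9 genes had a nearly constant summed RPKM, with a smaller share in class I and larger shares in classes IIa and IV at 21d. Their summed RPKM (reads scaled by gene length and by library size, as deposited) was 81.1 ± 0.283 (SD, n = 2) in subconfluent cells and 77.1 ± 1.14 at 21d. RPKM is relative to each library and is not an amount of RNA. The sum was not formed on the scale used for the tests, so its constancy is stated for RPKM only. Hdac1 (24.7 to 12.2 RPKM) and Hdac2 (58.2 to 25.8 RPKM), the class I enzymes outside this group, fell over the same span, and the 9 genes accounted for 49.4% of the RPKM of all 11 genes in subconfluent cells and 67.0% at 21d. Class I (Hdac3 and Hdac8) made up 38.3% ± 0.074 of the 9 genes in subconfluent cells and 28.1% ± 0.655 at 21d. Within class I, Hdac3 was lower at 21d (28.3 to 18.1 RPKM) and Hdac8 higher (2.73 to 3.5 RPKM). Class IIa (Hdac4, Hdac5, Hdac7 and Hdac9) went from 39.4% ± 0.011 to 46.7% ± 1.67. Within it Hdac5 was higher at 21d (9.86 to 20.7 RPKM), while Hdac7 (19.3 to 13.0 RPKM) and Hdac4 (2.83 to 2.32 RPKM) were lower. Hdac9 reached only 0.102 RPKM at 21d, so the larger share was not a rise of the whole class. Class IIb (Hdac6 and Hdac10) went from 20.6% ± 0.177 to 15.9% ± 0.749, after 24.5% ± 1.73 in confluent cells, and class IV (Hdac11) from 1.63% ± 0.113 to 9.29% ± 0.265. No replicate of 21d lay within the range of the subconfluent replicates for any class. Counts with no length correction gave other shares, for example 60.4% for class IIa at 21d against 49.4% in subconfluent cells, with the same order of these stages for every class.

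**Figure D1:**
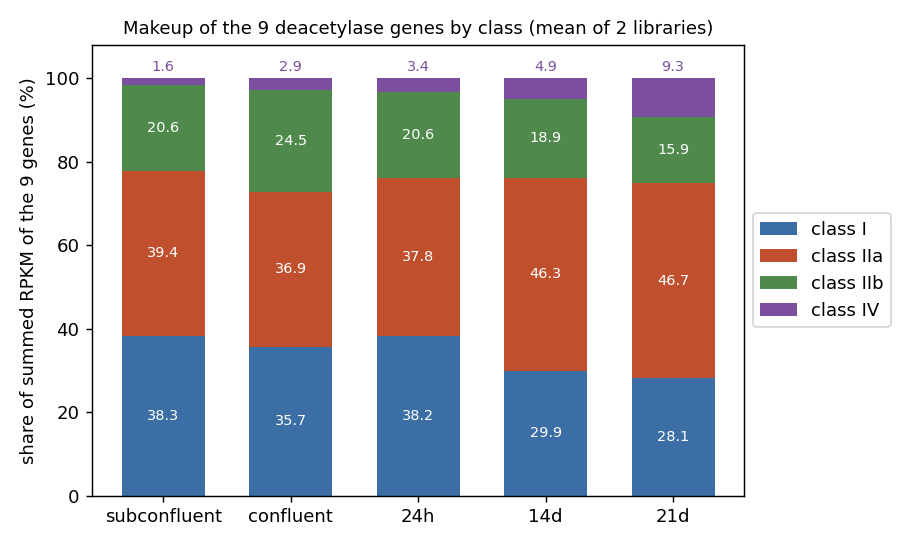
Share of the summed RPKM of the 9 genes (y axis, %) held by each class at each stage (x axis), as the mean of 2 libraries with the value printed in or above its bar segment. Class IIa was 46.7% and class IV 9.29% at 21d, against 39.4% and 1.63% in subconfluent cells.

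The order of the levels changed at the top. Hdac3 was the highest of the 9 genes in subconfluent, confluent and 24h cells, and Hdac5 was the highest at 14d and 21d after ranking 4 in subconfluent cells. Hdac11 moved from rank 8 to rank 5. Hdac9 stayed last at every stage. Several neighbours in the order could not be told apart by their replicates, namely Hdac10 and Hdac5, and Hdac4 and Hdac8, in subconfluent cells, then Hdac5, Hdac10 and Hdac7, and Hdac4 and Hdac11, in confluent cells, and Hdac10 and Hdac7 at 24h. At 14d and 21d the replicates of all neighbours were apart. Levels between genes depend on the lengths used for the RPKM, which for Hdac9 (4410 bases), Hdac7 (4423) and Hdac4 (11765) were below the exonic lengths in GENCODE (14665, 6755 and 15813).

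**Figure D2:**
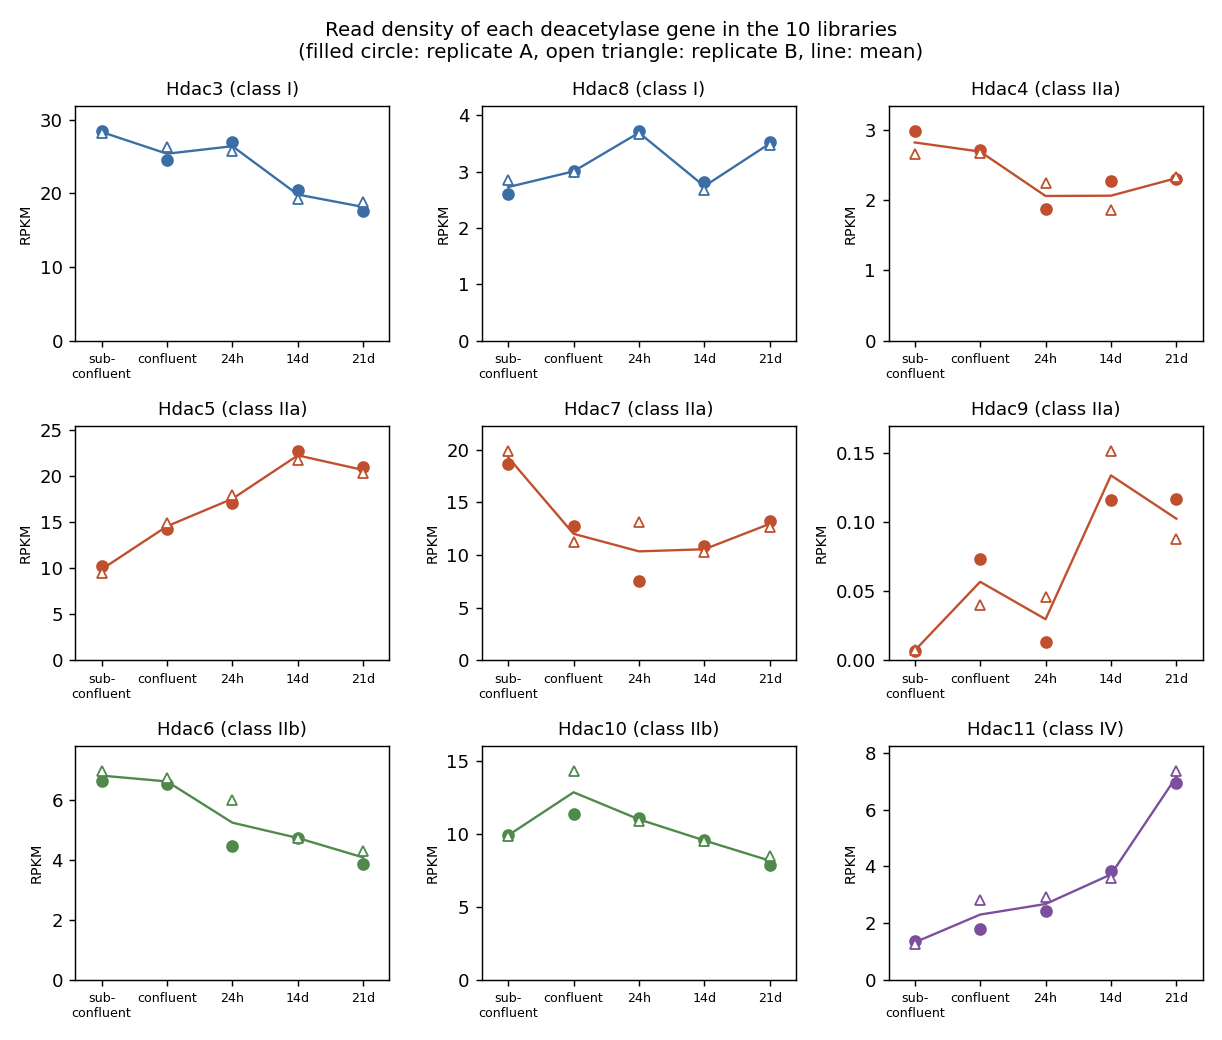
RPKM of each of the 9 genes (y axis, from 0, with a scale of its own per panel) at the 5 stages (x axis), with replicate A as filled circles, replicate B as open triangles and the mean as a line. Hdac11 climbs from subconfluent cells to 21d and Hdac5 to 14d, Hdac3 and Hdac6 decline, and the replicates of Hdac7 are far apart at 24h.

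Tested over the 5 stages in 1 model, 7 of the 9 genes changed (edgeR's quasi-likelihood F test, adjusted p under 0.05 over 20808 genes), and 48.9% of all genes tested did. The smallest adjusted p by edgeR were those of Hdac5 (7.3e-05) and Hdac11 (0.00037). Hdac10 (adjusted p = 0.054 by edgeR) and Hdac4 (adjusted p = 0.10) did not pass, although Hdac10 passed under 10 of 21 alternatives and all 9 genes passed by DESeq2. Between subconfluent cells and 21d, 6 of the 9 passed, against 50.7% of all genes: Hdac5, Hdac8, Hdac9 and Hdac11 were higher (27.3% of all genes were) and Hdac3 and Hdac6 lower (23.5%). Beyond 2-fold as well, Hdac5, Hdac9 and Hdac11 remained, where 27.6% of all genes did. Between confluent cells and 14d only Hdac5 and Hdac11 passed, both higher, against 32.1% of all genes in either direction and 16.9% higher. With the 24h libraries left out of the fit, 4 passed there, Hdac6 (lower) and Hdac9 (higher) in addition. With library size alone Hdac3 and Hdac10 passed there as lower, and under both limma settings Hdac3, Hdac6 and Hdac10 passed as lower and Hdac9 as higher. Without 21d replicate A the number that passed over the 5 stages was 4, namely Hdac5, Hdac8, Hdac9 and Hdac11. The shares of all genes given here are those of the main fit, and those by DESeq2 or with libraries left out are not given. With so few genes and backgrounds this high, the counts are not read as a property of the family.

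**Figure D3:**
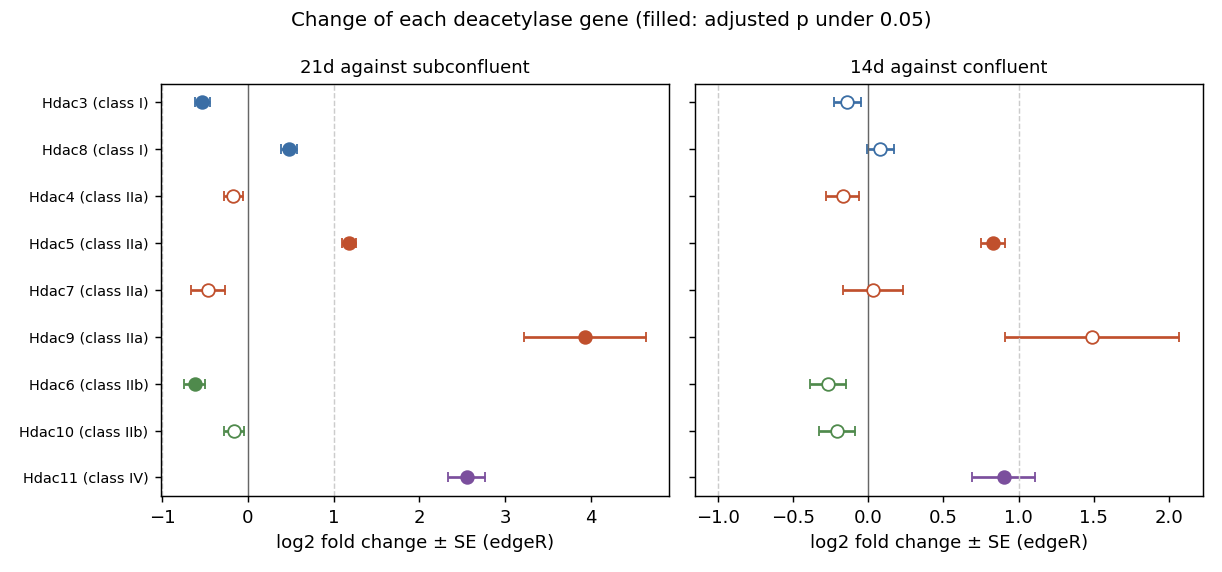
Log2 fold change of each gene with its standard error (x axis, edgeR) for 21d against subconfluent (left) and 14d against confluent (right), coloured by class, with filled points where the adjusted p was under 0.05 and dashed lines at 2-fold. Hdac5 and Hdac11 are the genes past the threshold in both panels.

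In class I, Hdac3 and Hdac8 went in opposite directions between subconfluent cells and 21d. From 24h to 14d both were lower (log2 fold changes -0.29 ± 0.09 and -0.30 ± 0.09, edgeR adjusted p = 0.066 and 0.065). Hdac3 (chromosome 18), which silences genes within NCoR/SMRT, stood at 28.4 and 28.2 RPKM in subconfluent replicates A and B, at 24.5 and 26.3 in confluent cells, at 27.0 and 25.8 at 24h, at 20.4 and 19.2 at 14d and at 17.5 and 18.8 at 21d. Every library of the first 3 stages was above every library of 14d and 21d. The log2 fold change at 21d against subconfluent was -0.53 ± 0.09 (SE, edgeR adjusted p = 0.0022), and the call held under 21 of 21 alternatives. Hdac8 (chrX:102284639-102505359, minus strand), which deacetylates the cohesin subunit Smc3, stood at 2.61 and 2.85 RPKM in subconfluent cells, 3.02 and 2.997 in confluent cells, 3.72 and 3.67 at 24h, 2.82 and 2.67 at 14d and 3.53 and 3.47 at 21d. On RPKM it was highest at 24h and 21d, with 14d within the subconfluent range. On the TMM-scaled CPM (counts scaled by library size) used for the test, both 14d libraries (9.79 and 9.53) lay above both subconfluent ones (8.05 and 8.80). At 21d against subconfluent the log2 fold change was 0.48 ± 0.09 (edgeR adjusted p = 0.0044), and without subconfluent replicate A it was 0.40 (adjusted p = 0.055 by edgeR).

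Class IIa held both the clearest rise and the most uneven pattern. Hdac5 (chr11:102194432-102230166, minus strand), a repressor of MEF2 targets, stood at 10.2 and 9.50 RPKM in subconfluent cells, 14.2 and 14.9 in confluent cells, 17.1 and 18.0 at 24h, 22.7 and 21.8 at 14d and 20.9 and 20.4 at 21d. Each stage up to 14d lay above the one before it with no overlap, and 21d lay below 14d. The log2 fold change was 1.18 ± 0.08 at 21d against subconfluent (edgeR adjusted p = 2.5e-05) and 0.83 ± 0.08 at 14d against confluent (edgeR adjusted p = 0.00036), and both calls held under 21 of 21 alternatives.

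Hdac7 (chr15:97792664-97844502, minus strand), a corepressor of Runx2 and MEF2, stood at 18.7 and 19.9 RPKM in subconfluent cells and 12.8 and 11.2 in confluent cells, then 7.51 and 13.2 at 24h, 10.8 and 10.3 at 14d and 13.2 and 12.7 at 21d. The subconfluent libraries were above all others, and the 24h replicates lay on either side of both 14d replicates. It passed over the 5 stages (edgeR adjusted p = 0.045), a call lost under 13 of 21 alternatives, among them library size alone, the replicate block, both limma settings and leaving out any 1 library of the subconfluent, confluent, 14d or 21d cells. Neither confluent against subconfluent (log2 fold change -0.71 ± 0.20, edgeR adjusted p = 0.13) nor 21d against subconfluent (-0.46 ± 0.20, edgeR adjusted p = 0.10) passed. With the 24h libraries left out of the fit the first of these gave an adjusted p of 0.0026 by edgeR at the same fold change. An exon of Hdac7 shares 29 bases with Slc48a1 on the other strand, and whether counting used the strand was not given in the sources used here.

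Hdac4 (chr1:91928779-92195699, minus strand), which restrains chondrocyte hypertrophy and Mmp13, ranged from 1.86 to 2.98 RPKM over the 10 libraries. With all samples in the model it passed between no 2 stages, and over the 5 stages it passed by DESeq2 only. Its exons share 3536 bases with the noncoding gene Gm26720 on the other strand, which had a mean count of 30.5 against 1931.1 for Hdac4. Hdac9 (chr12:34047580-34917095, minus strand), the class IIa member best known from muscle and T cells, was barely expressed, with 3 and 1 counts in subconfluent cells, 11 and 19 in confluent cells, 5 and 16 at 24h, 46 and 22 at 14d and 18 and 31 at 21d. Summed over replicates, its count per total was 13.9 times higher at 21d than in subconfluent cells, with an exact 95% interval of 5.08 to 52.9 that covers counting error only. The edgeR log2 fold change was 3.93 ± 0.71 (adjusted p = 0.0030) and passed under 20 of 20 alternatives, but the level at 21d was still only 0.102 ± 0.0203 RPKM.

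In class IIb, Hdac6 was lower at 21d and Hdac10 passed between no stages with the TMM scale and all samples in the model. Hdac6 (chrX:7930120-7947889, minus strand), the tubulin and Hsp90 deacetylase with a pair of catalytic domains, stood at 6.65 and 6.98 RPKM in subconfluent cells, 6.52 and 6.72 in confluent cells, 4.47 and 6.01 at 24h, 4.75 and 4.72 at 14d and 3.88 and 4.29 at 21d. Both 14d and both 21d libraries lay below every library of the growth medium stages. The log2 fold change at 21d against subconfluent was -0.62 ± 0.12 (edgeR adjusted p = 0.0039), and the call held under 21 of 21 alternatives. Hdac10 (chr15:89123307-89128700, minus strand), a polyamine deacetylase, ranged from 7.85 RPKM at 21d to 14.4 RPKM in confluent replicate B. Its mean was highest in confluent cells (12.9 ± 2.10) and its replicates there differed by more than at any other stage. With library size alone as the scale it passed as lower at 14d against confluent (log2 fold change -0.44, edgeR adjusted p = 0.020) and at 21d against subconfluent (edgeR adjusted p = 0.048). Both limma settings called it lower at 14d against confluent as well (-0.38 and -0.42), and with only the stages compared it passed at 21d against 14d (edgeR adjusted p = 0.038).

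Hdac11, the only class IV enzyme and an efficient remover of fatty acyl groups from lysine, had the largest fold change of the members after the barely read Hdac9. The gene (chr6:91156665-91174692, plus strand) stood at 1.38 and 1.26 RPKM in subconfluent cells, 1.78 and 2.83 in confluent cells, 2.44 and 2.91 at 24h, 3.83 and 3.60 at 14d and 6.94 and 7.38 at 21d. Both 21d libraries were above both 14d libraries, and both 14d libraries were above every earlier one. The log2 fold change was 2.55 ± 0.22 at 21d against subconfluent (edgeR adjusted p = 7.5e-05), a 5.42-fold ratio of mean RPKM, and this call held under 21 of 21 alternatives. At 14d against confluent it was 0.90 ± 0.21 (edgeR adjusted p = 0.015), and leaving out 14d replicate A or B gave an adjusted p of 0.076 or 0.065. Hdac11 shares 96 exonic bases with the antisense gene Gm14573, which had a mean count of 47.2 against 748.3 for Hdac11. Hdac11 also shares 594 bases (15.4% of its exonic length) with Gm44002 on the other strand, which is not among the genes of the count table.

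Between successive stages few members passed, and Hdac5 passed in 3 of the 4 steps. From subconfluent to confluent cells, only Hdac5 passed (log2 fold change 0.53 ± 0.08, edgeR adjusted p = 0.014), where 3.28% of all genes did. From confluent to 24h it was again only Hdac5 (0.36 ± 0.08, edgeR adjusted p = 0.044), where 5.15% did, and this call held under only 6 of 20 alternatives. From 24h to 14d, Hdac5 (0.47 ± 0.08, edgeR adjusted p = 0.0083) and Hdac9 (2.30 ± 0.59, edgeR adjusted p = 0.037) passed, where 17.3% of all genes did. From 14d to 21d only Hdac11 passed (0.87 ± 0.21, edgeR adjusted p = 0.040), where 9.72% of all genes did, and this call held under 14 of 21 alternatives. With both 24h libraries left out, 4 members passed from subconfluent to confluent cells (Hdac5, Hdac7, Hdac9 and Hdac11). From 14d to 21d, 3 then passed (Hdac6, Hdac8 and Hdac11). The shares of all genes called without these libraries are not given here, so these counts are not read as a result about the members. The calls of Hdac5 at the first step and of Hdac9 held under 14 of 21 and 7 of 19 alternatives. The step from 14d to 21d lies within 1 pair of index sequences, as do the steps up to 24h. At 21d against 14d the log2 fold change of Hdac5 was -0.18 ± 0.08 (edgeR adjusted p = 0.21), and DESeq2 gave an adjusted p of 0.044.

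The replicates alone gave a looser count. At 21d against subconfluent the RPKM of all 9 genes did not overlap between the stages, 4 above and 5 below, as was so for 83.7% of all genes. At 14d against confluent 9 of 9 did not overlap, 3 above and 6 below, against 76.3% of all genes. Hdac7 and Hdac8 were below on RPKM there while their log2 fold changes by edgeR were 0.03 and 0.08, and with library size alone as the scale these were -0.20 and -0.15, so the sign of both depends on the scale. On that scale the median of all genes moved from 0.03 to -0.20. The counts for the other steps were 7 for confluent against subconfluent (58.9% of all genes), 5 for 24h against confluent (46.0%), 6 for 14d against 24h (54.7%) and 8 for 21d against 14d (67.0%).

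Ratios between members of the same class do not depend on the scale of a library, and 3 of the 5 formed differed between stages (exact permutation test of the F statistic over 945 assignments, 1-sided, adjusted over the 5 ratios). The ratio of Hdac5 to Hdac4 was 3.49 ± 0.0976 in subconfluent cells, 5.40 ± 0.236 in confluent cells, 8.55 ± 0.805 at 24h, 10.8 ± 1.19 at 14d and 8.91 ± 0.222 at 21d (exact permutation p = 0.00317, adjusted 0.00794). The ratio of Hdac3 to Hdac8 went from 10.4 ± 0.693 to 5.19 ± 0.319 (exact permutation p = 0.00317, adjusted 0.00794). Hdac9 to Hdac4 went from 0.00248 to 0.0442, with an exact permutation p of 0.00847 (adjusted 0.0141), and it rests on the low counts of Hdac9. Hdac7 to Hdac4 went from 6.86 ± 0.845 to 5.59 ± 0.187 (exact permutation p = 0.165, adjusted 0.165). Hdac6 to Hdac10 went from 0.688 ± 0.0263 to 0.499 ± 0.00765 (exact permutation p = 0.137, adjusted 0.165). The smallest p this design allows is 0.00106.

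**Figure D4:**
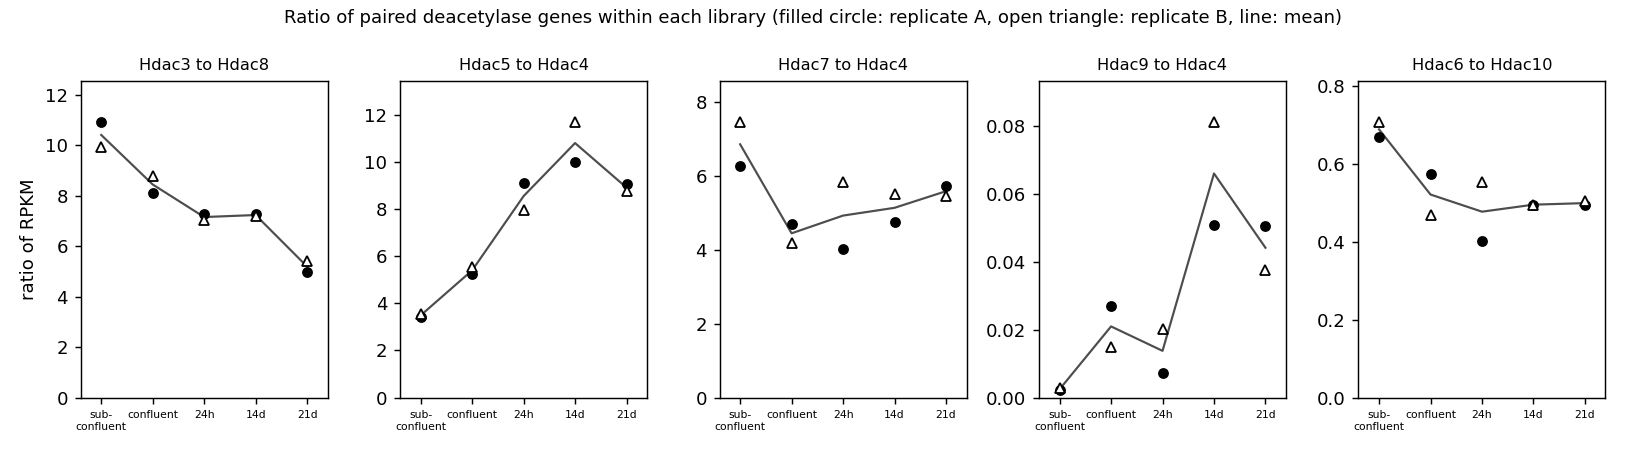
Ratio of RPKM between 2 deacetylase genes of 1 class in each library (y axis, from 0) at the 5 stages (x axis), with replicate A as filled circles, replicate B as open triangles and the mean as a line. Hdac5 to Hdac4 climbs from 3.49 to 10.8 at 14d and Hdac3 to Hdac8 declines from 10.4 to 5.19 at 21d.

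The genes whose pattern over the 10 libraries was most like that of a member, by Pearson's r of log2 CPM among 12080 genes with at least 5 CPM, are given as a description only, since all libraries share the course of the culture. For Hdac5 these were Eepd1 (r = 0.9975), Ibsp (0.9950), which encodes bone sialoprotein of mineralising matrix, and Ncf1 (0.9946). For Hdac11 they were Cryz (0.9894), Itpk1 (0.9889) and Zfp945 (0.9875). Those of Hdac3 were Cers5, Plaur and Gm23650 (0.9824 to 0.9803), those of Hdac6 were Gorab, Gm7701 and E2f7 (0.9855 to 0.9796), and those of Hdac8 were Adra1b, Cluap1 and Rilpl1 (0.9806 to 0.9765). Lower values were reached for Hdac7 by Ablim1, Slc4a2 and Nfx1 (0.9692 to 0.9608) and for Hdac9, which rests on few counts, by Pid1, Ptpn13 and Nlgn2 (0.9705 to 0.9688).

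The partners of the class IIa enzymes passed in both directions between subconfluent cells and 21d, where 27.3% of all genes were higher and 23.5% lower. All 4 MEF2 factors, the DNA-binding proteins that class IIa enzymes repress, were higher (median log2 fold change 1.53, against 0.04 over all genes). Mef2c was higher by 1.97 ± 0.18, Mef2a by 1.08 ± 0.16 and Mef2d by 0.65 ± 0.15, while Mef2b (3.51 ± 0.89) had at most 19 counts. The median and the count of 4 rest in part on Mef2b. Mef2b shares 62 exonic bases with Borcs8 on the same strand, which had a mean count of 2041.2 against 5.4 for Mef2b. Of the 7 genes for 14-3-3 proteins, which hold phosphorylated class IIa enzymes in the cytoplasm, 6 were lower (median -0.92), with Ywhah at -1.53 ± 0.10 and Ywhae at -1.36 ± 0.10. The 15 kinases that can phosphorylate class IIa enzymes were split, with 5 higher and 4 lower (median -0.06), near the shares over all genes, so the count is not read as a result about them. Camk2b (5.94 ± 0.36), Camk4 (2.29 ± 0.21) and Camk2a (2.27 ± 0.32) were higher but stood at only 1.38, 0.943 and 0.252 RPKM at 21d, and Prkd1 was lower (-1.76 ± 0.25). Of 5 genes reported as repressed by class IIa enzymes in bone, Mmp13 (3.43 ± 0.15) and Runx2 (0.89 ± 0.14) were higher, Pthlh did not pass, and Sost and Tnfsf11 had at most 2 counts.

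Partners of the other classes were compared against the same shares. None of the 5 NCoR/SMRT genes tested, the complex of Hdac3, passed by edgeR at 21d against subconfluent (median 0.07), with 1 at an unadjusted p under 0.05 and 0 by DESeq2. Of 7 genes tied to Hdac6, 4 were lower, among them its substrate Hsp90aa1 (-1.20 ± 0.10) and Vcp (-1.02 ± 0.13), which releases ubiquitinated cargo, and 1 was higher, the autophagy receptor Sqstm1 (1.25 ± 0.10). Among the 7 sirtuins, the NAD-dependent deacetylases outside this family, 4 were higher (median 1.13): Sirt3 by 2.09 ± 0.22, Sirt5 by 1.27 ± 0.21, Sirt2 by 1.25 ± 0.12 and Sirt4 by 1.13 ± 0.17. Sirt3 overlaps exons of Ric8a and Psmd13 on the other strand, both counted more often than Sirt3. Of 12 histone acetyltransferases, the opposing enzymes, 2 were higher and 3 lower (median 0.07), near the shares over all genes, so this count is not read as a result either. Hat1, which acetylates newly made histone H4, was at -2.48 ± 0.13, Kat6b, the catalytic subunit of a MOZ/MORF complex, at 1.34 ± 0.44, and the nuclear receptor coactivator Ncoa3 at -1.03 ± 0.14, and Ncoa3 shares 154 exonic bases with Sulf2 on the other strand. At 14d against confluent the lists gave 4 higher for MEF2, 5 lower for 14-3-3, 3 higher for sirtuins and 4 lower with 1 higher for the Hdac6 genes, where 16.9% of all genes were higher and 15.3% lower. By DESeq2, 3 of the MEF2 factors passed there.

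**Figure D5:**
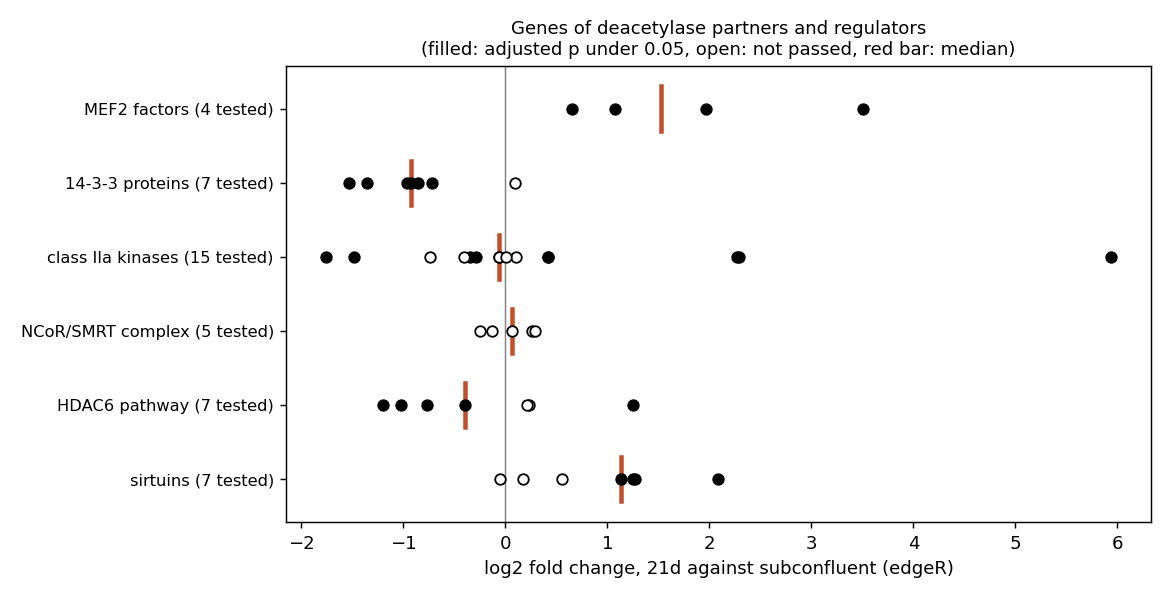
Log2 fold change at 21d against subconfluent (x axis, edgeR) of each tested gene in 6 lists of partners and regulators (y axis), filled where the adjusted p was under 0.05, with the list median as a red bar. The 4 MEF2 factors lie above 0 and 6 of the 7 genes for 14-3-3 proteins lie below it.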

How the data were processed

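RNA of MC3T3-E1 cells from 10 libraries (5 stages, 2 replicates) was sequenced by the study as 51 bp pairs. Per the labels, TopHat2 2.0.9, FastQC and R 3.0.1 were used with mm10, in roles not stated. The counter, its annotation and its use of strand were not given in the sources used here. The authors deposited raw counts per gene and RPKM, obtained by dividing by gene length and by read totals smaller than the count sums. Counts per library were 1.443 to 1.601 times the reads behind the RPKM. The complete rows of the RPKM table numbered 40602. Merged columns were used for 2 libraries sequenced in 2 lanes. Symbols and loci came from GENCODE vM21 on GRCm38, with 39547 of 40620 genes named.

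Counts were tested in edgeR 4.0.16 (R 4.3.3) with TMM scaling, filterByExpr, 1 quasi-likelihood model of the 5 stages over 20808 genes and Benjamini-Hochberg adjustment, and a gene passed at an adjusted p under 0.05. Ratios were tested by exact permutation. Scripts were tested on simulated data. The members and lists were chosen with earlier results of these data known. Every member is named. Genes from a list are named if past 2-fold at 21d against subconfluent, at most 4 a list, besides markers and genes that complete a complex. The 3 genes with the highest correlation were taken for each member that passed over the 5 stages. Alternatives were DESeq2 1.42.0, limma 3.58.1 on log2(RPKM + 1) and log2(RPKM + 0.1), other scaling, filters, thresholds, sample sets and leaving out each library. The correlation between stages of the deviations of A from B ran from -0.332 to 0.321. Depth also differed between A and B, so these values cannot tell whether the letters mark a pairing.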

Additional observations from a re-analysis of the deposited data

How the results depend on the processing

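Of 1109 log2 fold changes of single members under alternatives, 980 kept their direction and side of the threshold, 65 newly passed, 47 no longer passed and 17 changed sign. The calls of Hdac3, Hdac5, Hdac6, Hdac9 and Hdac11 at 21d against subconfluent and of Hdac5 at 14d against confluent held under every alternative run. The causes of the changes below were not tested. The number of members that passed at 21d against subconfluent (6) was 3 beyond 2-fold. For confluent against subconfluent (1) it was 0 beyond 2-fold and at an adjusted p under 0.01, 3 by DESeq2, 2 with only the stages compared and 4 without the 24h samples. For 24h against confluent (1) it was 2 by DESeq2 and 0 under each of the 2-fold, 0.01, library size, no filter, 2-stage, replicate block and both limma settings. For 14d against 24h (2) it was 5 by DESeq2, 4 by both limma settings, 0 with only the stages compared and 1 under the 2-fold, 0.01, no filter, 10 counts and replicate block settings. For 21d against 14d (1) it was 0 beyond 2-fold, at 0.01 and with the replicate block, 2 by DESeq2, 4 with only the stages compared and 3 without 24h. For 14d against confluent (2) it was 0 beyond 2-fold, 1 at 0.01, 4 by library size, with only the stages compared and without 24h, and 6 by both limma settings. Of all genes, 7335 of 20808 passed there by library size and 7572 of 20795 by limma on log2(RPKM + 1), against 6688 in the main fit. For the other settings the shares of all genes are not given here, so these counts are not read as a result about the members. The replicate block changed no other count of members by over 1.5 times.

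Leaving out each library in turn gave 4 to 8 members over the 5 stages (4 without 21d replicate A), 5 to 7 at 21d against subconfluent, 1 to 4 at 14d against confluent, 0 to 3 at confluent against subconfluent, 0 to 7 at 24h against confluent (7 without 24h replicate B), 0 to 5 at 14d against 24h and 0 to 3 at 21d against 14d. The adjusted p of the ratios then ran from 0.00529 to 0.0159 for Hdac3 to Hdac8, 0.00529 to 0.0212 for Hdac5 to Hdac4, 0.00529 to 0.0476 for Hdac9 to Hdac4 and 0.0222 to 0.449 for both Hdac7 to Hdac4 and Hdac6 to Hdac10. Without the 24h samples Hdac7 to Hdac4 had an adjusted exact permutation p of 0.0238. The shares of all genes called with each library left out are not given here, so the counts of members are not read as a result about them.

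Log2 fold changes that changed sign were those of Hdac7 at 14d against confluent (-0.20 by library size, -0.04 without a filter, -0.17 and -0.18 by limma, and -0.03, -0.03 and -0.06 without subconfluent A, subconfluent B and confluent B, up to 0.12 without confluent A), Hdac8 at 14d against confluent (-0.15 by library size, -0.10 and -0.13 by limma) and Hdac6 at 14d against 24h (0.01 with 10 counts in every sample, 0.11 without 24h B). Leaving out single libraries, Hdac7 ran from -0.52 (without 24h B) to 0.17 (without 24h A) at 24h against confluent and from -0.15 (without 24h A) to 0.52 (without 24h B) at 14d against 24h. Hdac10 ran from -0.29 to 0.05 at 24h against confluent, the latter without confluent B, and Hdac4 from -0.00 (without 14d A) to 0.25 at 14d against 24h and from -0.03 (without 14d B) to 0.22 at 21d against 14d. Class shares by counts with no length correction differed at all stages. With 2 libraries a stage, small changes of weakly expressed members such as Hdac9 cannot be resolved.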
